A study of Mus musculus with 4 samples.

Results

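Cell cycle and DNA replication genes were examined in quadriceps muscle of mice that carry a Lin28a transgene (Lin28a Tg) and of wild-type (WT) mice. The 31 genes were named from what their products do, as 4 regulators of the step from G1 into S phase, 11 genes of DNA replication and nucleotide supply, and 16 genes of G2 and mitosis. Of these, 28 had a row in the authors' table of 17904 genes, and Cdk4, Mki67 and Aurkb were not analysed here. Cdc2a is the older name, used in the table, of Cdk1. All 4 animals were CD-1 males aged 5 weeks, with 2 Lin28a Tg and 2 WT samples, and each sample was read on an Illumina Ref-8 bead array. Lin28a encodes an RNA-binding protein that blocks maturation of the let-7 microRNAs, and the question was which muscle transcripts differ with the transgene. The promoter that drives the transgene is not given in the sources used here. The labels do not say how the replicates were taken, so the p-values reflect the variation between these 4 samples, part of which may be technical.

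A cell that divides copies its DNA in S phase and shares it out in mitosis. Entry into S phase is driven by cyclin E with Cdk2, and the E2F transcription factors then raise genes of the replication machinery. The MCM proteins form the ring that unwinds DNA ahead of the polymerase, PCNA is the clamp that holds the polymerase on its template, and ribonucleotide reductase and thymidylate synthase supply nucleotides. Cyclins A and B with Cdk1 drive the later steps, Aurora and Polo-like kinases build and steer the spindle, and Bub1 and Bub1b hold back the anaphase-promoting complex, which Cdc20 activates, until chromosomes are attached. Mature muscle fibres do not divide, and the cells of muscle that can do so include satellite cells, fibroblasts, endothelial cells and leukocytes. In bulk muscle a change in the number of such cells and a change in RNA per cell cannot be told apart.

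Intensities are linear, and the background of these arrays was not subtracted. The commonest intensity over all genes was 84.8, and a gene was called above background on an array where it exceeded 90.1, the mode plus 1.645 SD. Genes above it on at least 2 of the 4 arrays were tested, 7891 in all (44.1% of genes with a row). Among these genes the log2 intensities of the Lin28a Tg pair correlated at r = 0.990 across genes and those of the WT pair at r = 0.979. Between the groups, WT replicate 2 correlated at r = 0.985 and 0.989 with Lin28a Tg replicates 1 and 2, and WT replicate 1 at 0.976 and 0.979. WT replicate 2 was thus closer to both Lin28a Tg arrays than to WT replicate 1. WT replicate 1 stood apart in transcripts abundant in liver, the apolipoprotein gene Apoa2 reading 5506 there and 84.9 to 89.9 on the other arrays. All 8 fibre markers, such as Ckm and Acta1, were above background on every array. The Lin28a row was at or below background on all 4 arrays, at 86.4 and 88.0 in Lin28a Tg and 82.9 and 82.6 in WT, so it does not check the labels. Over all 7891 genes, limma called 0 at an adjusted p under 0.05 (0% called), with a smallest adjusted p of 0.366. An unadjusted p under 0.05 was reached by 700 (8.87%), of which 399 (5.06%) read higher and 301 (3.81%) lower in Lin28a Tg.

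Most of the cell cycle genes lay at or near background in this muscle, much as genes of the whole array did. Of the 28 with a row, 9 were above background on all 4 arrays (36% of all genes were) and 10 on none (45.5% of all genes). The 9 were Cdk2, Mcm2, Mcm3, Mcm4, Mcm5, Rrm1, Tk1, Aurka and Plk1. The 10 were Ccne2, Pcna, Mcm7, Rrm2, Ccna2, Ccnb1, Bub1, Ube2c, Cks2 and Stmn1. The other 9 were above it on 1 to 3 arrays, so 15 of the 28 were tested (44.1% of all genes with a row were). The replication genes were above background on every array in 6 of 11 cases, and the mitosis genes in 2 of 14. Rrm2 at 89.9 and Cdc20 at 90.2 were the closest single readings below and above the level among the mitosis and replication genes.

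**Figure D1:**
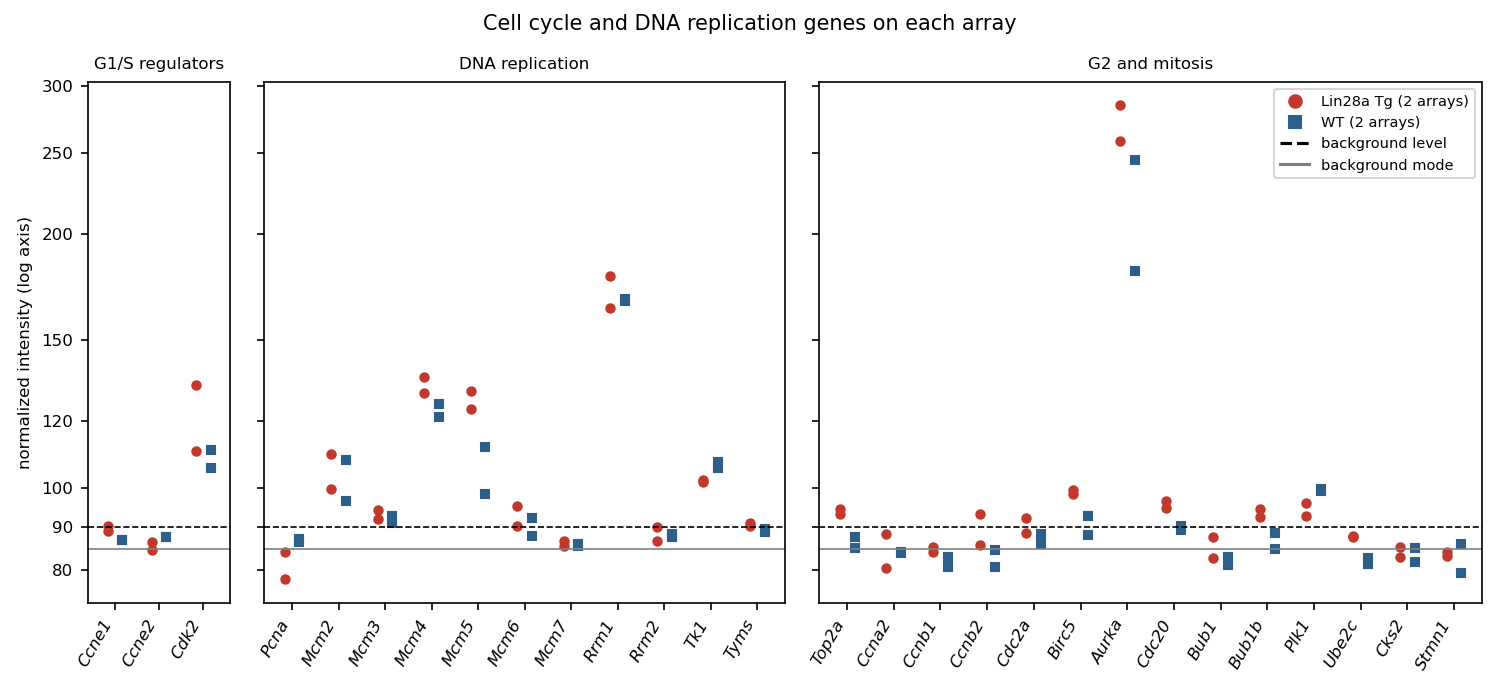
Normalized intensity (log axis) of the 28 genes with a row on each of the 4 arrays, Lin28a Tg as circles and WT as squares, with the background level of 90.1 dashed and the mode of 84.8 as a grey line. Most genes sit close to these lines, and Aurka, Rrm1, Mcm4, Mcm5, Cdk2, Mcm2 and Tk1 lie at 96.6 or more on every array. Heights of different genes come from different probes and are not comparable.

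Promoter windows of 250 bases before to 50 bases after the annotated gene start (RefSeq, GRCm38.p6) were searched for motifs known from cell cycle promoters, as a description that does not use the arrays. There were 27 windows for 26 of the 31 genes. The motifs, looked for on both strands, were the box bound by the factor NF-Y (CCAAT), and the cell cycle genes homology region or CHR, bound by the DREAM complex, spelled TTTGAA. The first form of an E2F-like site searched was TTCGCGC. The second form of the site had a run of pyrimidines, as TTCCCGC. The last form of the site looked for in the windows was TTGGCGC, and E2F-like matches can overlap one another and a CCAAT box. Of the 13 windows of mitosis genes, 9 (69.2%) held a CHR and 12 (92.3%) a CCAAT box, against 17.9% and 37.4% of all 32817 windows. Of the 11 windows of replication genes, 1 (9.09%) held a CHR and 6 (54.5%) an E2F-like site, which 8.07% of all windows held. Mcm7 gave 2 of the 11 windows, both with an E2F-like site, and Mcm4 gave none, so the 11 windows cover 10 genes. At least 2 CCAAT boxes stood in 10 of the 13 mitosis windows (76.9%) and in 11.7% of all windows. Neither CCAAT boxes nor E2F-like sites were confined to 1 class. Of the 11 replication windows, 9 (81.8%) held a CCAAT box and 5 (45.5%) at least 2. An E2F-like site stood in 3 of the 13 mitosis windows (23.1%). These matches are letters in a window and not shown binding sites.

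**Figure D2:**
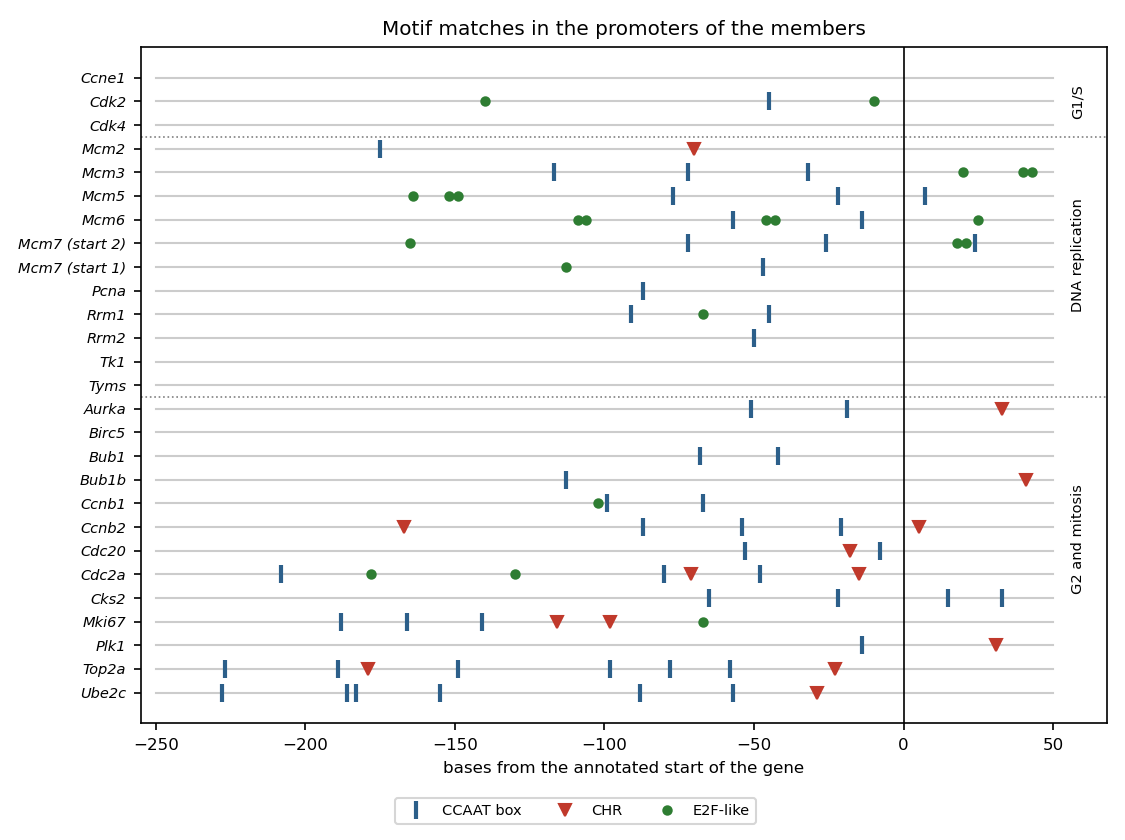
Positions of CCAAT box, CHR and E2F-like matches, in bases from the annotated gene start (x axis), in each of the 27 promoter windows, grouped by class (y axis). CHR marks are seen in 9 of the 13 mitosis windows and 1 of the 11 replication windows. E2F-like marks are seen in 6 of the 11 replication windows and 3 of the 13 mitosis windows.

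The windows of 7 genes whose values are described below are shown so that the letters behind these counts can be read, with matches to any of the motifs in capitals, 5′ to 3′ along the gene. Top2a, Cdc20, Bub1b and Aurka read higher in Lin28a Tg and carry CHR and CCAAT letters, Plk1 carries both and read lower, Birc5 read higher and has none of the 3 motifs, and Mcm5 carries E2F-like sites and CCAAT boxes.
Top2a, chr11:99024140-99024439, minus strand: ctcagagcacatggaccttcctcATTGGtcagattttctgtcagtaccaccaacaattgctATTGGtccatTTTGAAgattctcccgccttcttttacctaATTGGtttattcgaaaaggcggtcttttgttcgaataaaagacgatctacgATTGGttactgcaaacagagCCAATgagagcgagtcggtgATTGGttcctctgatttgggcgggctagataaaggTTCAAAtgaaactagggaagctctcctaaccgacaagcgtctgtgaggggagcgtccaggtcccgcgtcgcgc
Cdc20, chr4:118437294-118437593, minus strand: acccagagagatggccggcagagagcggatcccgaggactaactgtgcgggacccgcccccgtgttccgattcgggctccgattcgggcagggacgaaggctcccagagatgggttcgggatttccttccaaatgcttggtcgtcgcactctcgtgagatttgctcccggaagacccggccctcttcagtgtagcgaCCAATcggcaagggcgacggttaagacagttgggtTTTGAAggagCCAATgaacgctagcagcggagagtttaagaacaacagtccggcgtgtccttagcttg
Bub1b, chr2:118597961-118598260, plus strand: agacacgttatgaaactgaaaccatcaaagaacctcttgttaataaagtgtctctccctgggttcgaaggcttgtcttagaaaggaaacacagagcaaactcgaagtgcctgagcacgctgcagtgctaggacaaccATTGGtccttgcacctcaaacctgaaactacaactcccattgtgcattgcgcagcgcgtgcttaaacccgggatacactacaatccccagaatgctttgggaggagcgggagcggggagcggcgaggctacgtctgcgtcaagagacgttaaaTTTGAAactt
Aurka, chr2:172370521-172370820, minus strand: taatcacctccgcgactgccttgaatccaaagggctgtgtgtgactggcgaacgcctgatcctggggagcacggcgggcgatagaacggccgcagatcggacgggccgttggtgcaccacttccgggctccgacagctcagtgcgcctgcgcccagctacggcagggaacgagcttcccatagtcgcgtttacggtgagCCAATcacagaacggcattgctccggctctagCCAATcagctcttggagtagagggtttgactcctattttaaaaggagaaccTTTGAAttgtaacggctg
Plk1, chr7:122159185-122159484, plus strand: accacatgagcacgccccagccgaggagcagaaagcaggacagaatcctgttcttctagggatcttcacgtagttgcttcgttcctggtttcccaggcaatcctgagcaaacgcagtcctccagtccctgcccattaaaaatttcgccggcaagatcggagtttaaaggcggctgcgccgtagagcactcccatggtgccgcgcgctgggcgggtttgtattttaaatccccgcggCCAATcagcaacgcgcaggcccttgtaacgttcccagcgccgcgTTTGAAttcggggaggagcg
Birc5, chr11:117848987-117849286, plus strand: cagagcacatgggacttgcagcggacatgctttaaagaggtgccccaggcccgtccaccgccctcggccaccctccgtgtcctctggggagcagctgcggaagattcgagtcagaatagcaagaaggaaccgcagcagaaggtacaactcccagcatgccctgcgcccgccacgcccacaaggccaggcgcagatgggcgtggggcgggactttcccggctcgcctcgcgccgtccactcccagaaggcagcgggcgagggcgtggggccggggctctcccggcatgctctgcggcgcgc
Mcm5, chr8:75109259-75109558, plus strand: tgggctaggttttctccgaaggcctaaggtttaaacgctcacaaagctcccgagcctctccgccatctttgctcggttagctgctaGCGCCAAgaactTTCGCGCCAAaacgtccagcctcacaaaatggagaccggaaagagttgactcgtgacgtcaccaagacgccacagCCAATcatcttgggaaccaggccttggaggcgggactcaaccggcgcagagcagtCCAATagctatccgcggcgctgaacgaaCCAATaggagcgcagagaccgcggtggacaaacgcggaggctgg

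No cell cycle gene passed the test, and the differences were small. The adjusted p of the 15 tested, from limma over all 7891 genes, ran from 0.54 to 0.969. At an unadjusted p under 0.05 there was 1 higher, Mcm5, and 0 lower. Over the 28 with a row, 24 had a positive log2 fold change (51.5% of all genes did). Both Lin28a Tg arrays lay above both WT arrays for 13 of the 28 (18.8% of all genes with a row) and below them for 4 (16.6%). Without Lin28a Tg replicate 2 these counts were 21 and 6 (36% and 32.3% of all genes), since fewer arrays separate more readily. With 2 arrays against 2, an exact two-sided permutation test cannot give a p below 0.333 for a single gene.

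Of the regulators of the G1 to S step, Cdk2 alone was above background on enough arrays to be tested. Cdk2, the kinase partner of cyclin E, read 132 and 111 in Lin28a Tg and 106 and 111 in WT. The groups overlapped, with Lin28a Tg replicate 1 alone standing higher, and the log2 fold change of 0.16 (SE 0.11) was 0.03 without that array. The cyclin gene Ccne1 read 89.0 and 90.3 in Lin28a Tg and 86.7 on both WT arrays, and thus exceeded background on 1 array. Ccne2 was below background on all arrays, at 84.5 and 86.4 against 87.6 and 87.4.

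Among the replication genes, 2 of the 5 MCM subunits tested were without overlap between the groups, both higher in Lin28a Tg. Of all genes tested, 21.6% lay higher in this way and 16.8% lower. Mcm5, a subunit of the MCM2-7 helicase, read 130.5 and 124 in Lin28a Tg and 112 and 98.5 in WT. Both Lin28a Tg arrays were higher, by 1.21-fold (log2 0.28, SE 0.09, adjusted p = 0.54 with limma). Without WT replicate 2, the lowest array, the log2 fold change was 0.19. Mcm4 read 135 and 129.8 against 121 and 126, also without overlap, at a log2 fold change of 0.10 (SE 0.06, adjusted p = 0.735 with limma).

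The other helicase subunits overlapped between the groups. Mcm2 read 109.8 and 99.8 in Lin28a Tg and 108 and 96.6 in WT, so that replicate 1 was the higher array in either group. Mcm3 read 94.2 and 92.0 against 91.0 and 92.6. Mcm6 read 95.3 and 90.2 against 92.1 and 87.8, with WT replicate 2 below background. All 3 had log2 fold changes from 0.02 to 0.04, and that of Mcm2 turned to -0.03 without Lin28a Tg replicate 1 and to -0.05 without WT replicate 2. Mcm7 stayed between 85.4 and 86.7 on the 4 arrays, below background.

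The nucleotide supply genes tested had log2 fold changes from -0.07 to 0.03. Rrm1, the large subunit of ribonucleotide reductase, read 178 and 164 in Lin28a Tg and 168 and 167 in WT, a log2 fold change of 0.03 (SE 0.07) that was -0.03 without Lin28a Tg replicate 1. Tk1, the thymidine kinase of the salvage pathway, read 102 on both Lin28a Tg arrays and 107 and 106 in WT. It was thus the 1 tested replication gene that read lower without overlap, at a log2 fold change of -0.07 (SE 0.06, adjusted p = 0.813 with limma). Tyms, thymidylate synthase, read 91.0 and 90.3 against 89.4 and 88.8, above background on both Lin28a Tg arrays and neither WT array. Its fold was at least 1.01.

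Pcna and Rrm2 give no level in this tissue. Pcna, the polymerase clamp, read 78.0 and 84.1 in Lin28a Tg and 86.4 and 86.9 in WT, with every array below background. Rrm2, the small subunit of ribonucleotide reductase, read 86.7 and 89.9 against 88.3 and 87.6. Over the 11 replication genes 3 lay higher and 2 lower without overlap (18.8% and 16.6% of all genes with a row). The median log2 fold change of the 8 tested was 0.03 (0.01 over all genes tested), and it was 0.00 without Lin28a Tg replicate 1 and 0.09 without Lin28a Tg replicate 2.

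Mitosis genes mostly read higher in Lin28a Tg, by small amounts and close to background. Of the 14 with a row, 13 had a positive log2 fold change (51.5% of all genes with a row did). Of the same 14, 9 lay higher without overlap (18.8% of all genes) and 1, Plk1, lay lower (16.6%). On each Lin28a Tg array 7 of the 14 were above background, against 4 on WT replicate 1 and 2 on WT replicate 2, where 43.4% to 43.7% of all genes were on every array. The mean log2 deviation of the 6 tested from their means over the 4 arrays was 0.07 and 0.06 on the Lin28a Tg arrays and -0.08 and -0.04 on the WT arrays, with Top2a and Bub1b, which entered the test only through their Lin28a Tg arrays, among the 6. The median log2 fold change over the 6 tested was 0.12, and 0.08 with the genes dim in WT set at their bounds. Top2a and Bub1b entered the test only through their Lin28a Tg arrays and so had to differ, and the counts over the 14 do not depend on that filter.

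Top2a, topoisomerase II alpha, which untangles sister chromatids, read 93.3 and 94.4 in Lin28a Tg and 87.5 and 84.9 in WT. Bub1b, the spindle checkpoint kinase-like protein BubR1, read 92.3 and 94.6 against 88.6 and 84.7. Both genes exceeded background on the Lin28a Tg arrays alone. The fold was at least 1.04 for each, with adjusted p = 0.654 and 0.715 from limma. Over all genes tested, 1.67% were above background on both Lin28a Tg arrays and neither WT array, and 1.75% showed the converse. Only the 803 tested genes above background on exactly 2 arrays can show either pattern.

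Birc5, survivin, a subunit of the chromosomal passenger complex, read 98.4 and 99.4 in Lin28a Tg and 92.8 and 87.9 in WT. The groups did not overlap, with WT replicate 2 below background, and the log2 fold change was 0.13 (SE 0.06, adjusted p = 0.652 with limma). Cdc20, the activator of the anaphase-promoting complex, read 96.5 and 94.7 against 90.2 and 89.1, a log2 fold change of 0.09 (SE 0.06, adjusted p = 0.733 with limma). WT replicate 2 lay below background here too.

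Aurka, the kinase of the spindle poles, read 285 and 258 in Lin28a Tg and 181 and 245 in WT. The Lin28a Tg arrays were the higher, and WT replicate 1 was far below the other 3 arrays. The log2 fold change of 0.36 (SE 0.17, adjusted p = 0.645 with limma) was 0.15 without that array and 0.58 without WT replicate 2. Plk1, Polo-like kinase 1, went the other way, at 92.7 and 96.0 against 99.7 and 99.2. Its log2 fold change was -0.08 (SE 0.06, adjusted p = 0.786 with limma), and it was above background on all 4 arrays.

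**Figure D3:**
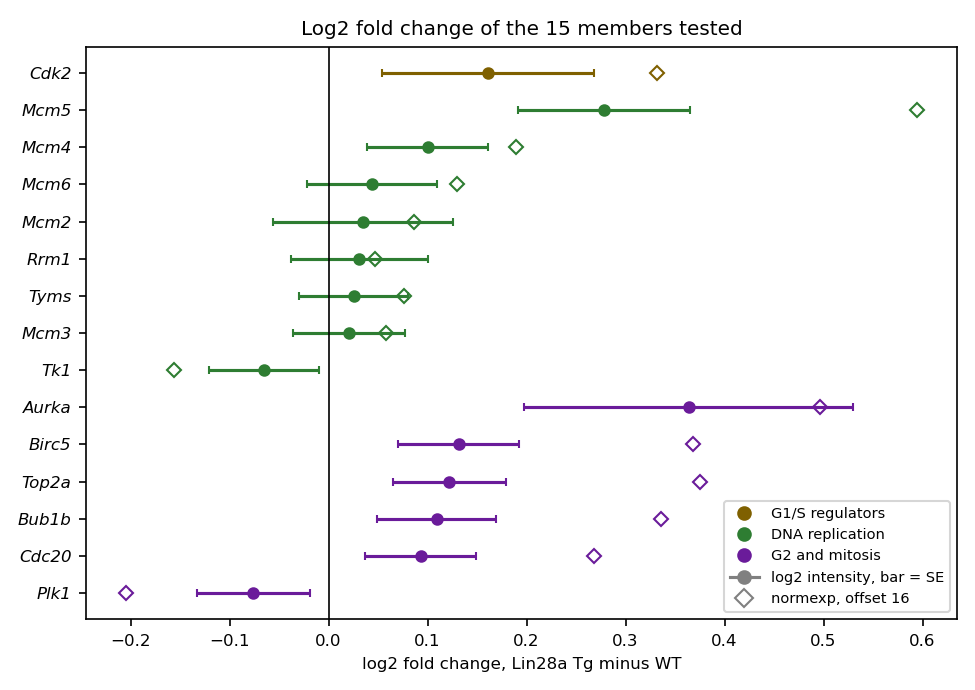
Log2 fold change (Lin28a Tg minus WT) of the 15 genes tested, as filled circles with the standard error, and after normexp background correction with an offset of 16 as open diamonds. Aurka at 0.36 and Mcm5 at 0.28 lie farthest from 0, and Plk1 and Tk1 lie below 0. WT values of Top2a, Bub1b and Tyms were below background, so their plotted values are those of the fit and not measured folds.

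The mitosis genes not tested were at background throughout or nearly so. Ccnb2, a B-type cyclin, read 85.5 and 93.1 in Lin28a Tg and 80.7 and 84.5 in WT, and Cdc2a, the mitotic kinase, 92.2 and 88.4 against 88.4 and 85.8. Each exceeded background on 1 Lin28a Tg array. Ube2c, the ubiquitin-conjugating enzyme of the anaphase-promoting complex, read 87.6 and 87.8 against 82.7 and 81.2, and Ccnb1 84.0 and 85.2 against 82.9 and 80.7, all within the background. These 4 lay higher without overlap, whereas Ccna2, Bub1, Cks2 and Stmn1 overlapped, in a range of 79.3 to 88.3. Of all genes not tested, 16.6% lay higher in this way and 16.5% lower.

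Subtraction of background widened the differences of these dim genes without bringing any past the test. After normexp with an offset of 16, the log2 fold changes were 0.37 for Top2a, 0.37 for Birc5, 0.34 for Bub1b, 0.27 for Cdc20 and 0.59 for Mcm5, with -0.20 for Plk1 and -0.16 for Tk1. The median over the 6 mitosis genes tested was then 0.35 and that over the 8 replication genes tested 0.08. Top2a and Bub1b among the 6, and Tyms among the 8, entered the test only through their Lin28a Tg arrays. Their WT values were below background, so their values here are not measured folds, and both medians include such values.

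Other genes of the cycle, in lists of 37 for G1 control and the E2F and RB families, 53 for replication and 74 for mitosis, were set beside the 3 classes. In the G1 control list, 11 of 24 tested lay higher without overlap and 1 lower (21.6% and 16.8% of all genes tested), and the median log2 fold change was 0.13. That median was 0.08 without Lin28a Tg replicate 2 or without WT replicate 1, and 0.04 over all 35 with a row. Of the 11, 1 entered the test only through its Lin28a Tg arrays, and the 1 lower only through its WT arrays, so both had to differ. Over the 35 with a row, 13 lay higher and 2 lower (18.8% and 16.6% of all genes). In the mitosis list, 21 of the 66 with a row lay higher and 8 lower (18.8% and 16.6% of all genes), with a median of 0.02. Of these, 28 were tested, 11 of them higher and 4 lower, with a median of 0.05, but 4 of the 11 entered the test only through their Lin28a Tg arrays and so had to lie higher. In the replication list, 8 of 30 lay higher and 10 lower, with a median of 0.04 that was -0.02 without WT replicate 2 and -0.01 without Lin28a Tg replicate 1. Of the 10, 1 entered the test only through its WT arrays and so had to lie lower. Over the 50 replication genes with a row, 13 lay higher and 13 lower. No gene of the 3 lists passed, the smallest adjusted p with limma being 0.509, and at an unadjusted p under 0.05 there were 5 higher and 0 lower, 1 and 1, and 2 and 0 in G1 control, replication and mitosis (5.06% and 3.81% of all genes tested).

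In the G1 control list the genes at an unadjusted p under 0.05 included activators and brakes of the cycle alike. Ccnd1, the cyclin D1 gene, read 382 and 377 in Lin28a Tg and 317 and 262 in WT (log2 0.40, SE 0.11, adjusted p = 0.531 with limma), and 0.26 without WT replicate 2. Ccnd3 read 219.6 and 222 against 186 and 191, a log2 fold change of 0.23. E2f1, a transcription factor of the G1 to S step, read 133 and 121 against 109 and 107, also 0.23.

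The brakes among them were Cdkn1c and Btg1. Cdkn1c, the CDK inhibitor p57, read 3787 and 2699.6 in Lin28a Tg and 2087 and 1772 in WT (log2 0.73, SE 0.19, adjusted p = 0.519 with limma), a value of 0.49 without Lin28a Tg replicate 1. Btg1, an antiproliferative gene, read 289 and 272 against 241 and 253, a log2 fold change of 0.18. All 5 lay higher without overlap between the groups (21.6% of all genes tested did). They were named for an unadjusted p under 0.05 with limma, so the lack of overlap is no separate result.

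In the replication list Fen1, the nuclease that trims Okazaki fragments, read 168 and 155 in Lin28a Tg and 139 and 125 in WT (log2 0.29, SE 0.09, adjusted p = 0.54 with limma). Pold4, the small subunit of DNA polymerase delta, read 131 and 129 against 155 and 146, lower in both Lin28a Tg samples (log2 -0.21, SE 0.06, adjusted p = 0.54 with limma). In the mitosis list Prc1, which bundles midzone microtubules, read 151 and 131 against 115 and 96.2 (log2 0.42, SE 0.12, adjusted p = 0.54 with limma). The kinesin gene Kif22 read 119 and 118 against 104 and 108, a log2 fold change of 0.16.

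Besides these, 4 of the 28 genes tested in the mitosis list were above background on both Lin28a Tg arrays and neither WT array. Top2a and Bub1b showed the same pattern, and 0 of the 28 showed the converse. Over all genes tested the shares were 1.67% and 1.75%. Only a gene above background on exactly 2 arrays can show either pattern, which 7 of the 28 were. Of all genes tested, 803 were, of which 132 showed the first pattern and 138 the converse. The 4 of the mitosis list were picked out with their values in view, and are Anln (anillin), Spc24 (a subunit of the NDC80 complex), Cdca8 (borealin) and Incenp. They entered the test only through their Lin28a Tg arrays and so had to lie higher. Anln read 94.0 and 93.1 against 86.4 and 84.4, and Spc24 90.7 and 92.6 against 84.2 and 89.98. Cdca8 read 90.4 and 91.3 against 85.2 and 82.9, and Incenp 90.9 and 94.2 against 86.1 and 86.4. Cdca8, Incenp and Birc5 belong to 1 complex, the chromosomal passenger complex, which was not tested as a set. The folds of the 4 were at least 1.01 to 1.04, and their unadjusted p with limma ran from 0.075 to 0.31.

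**Figure D4:**
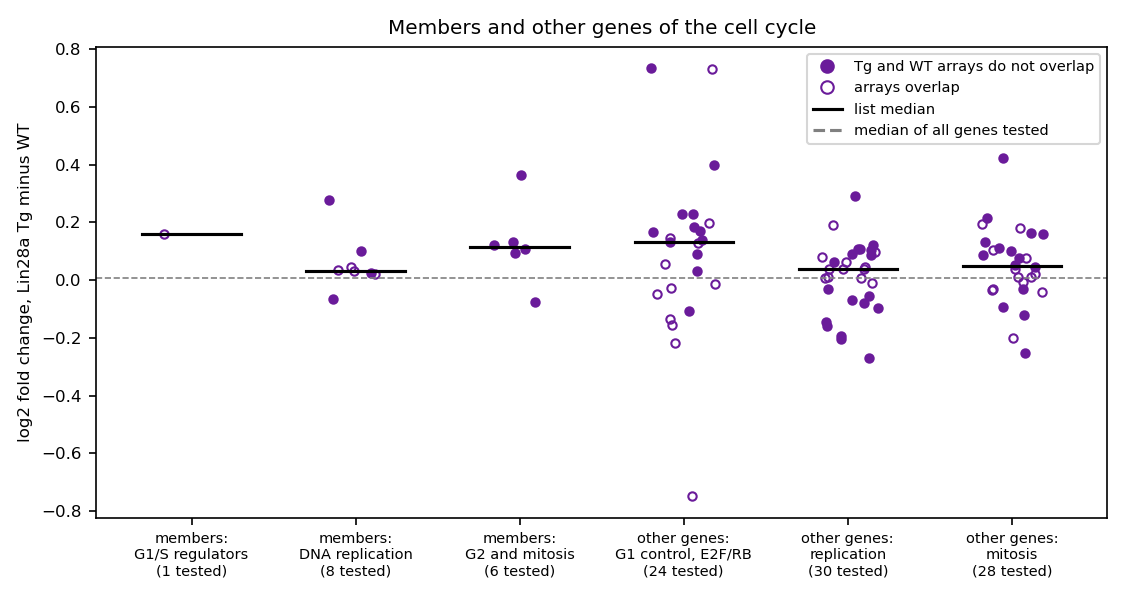
Log2 fold change (Lin28a Tg minus WT, y axis) of each gene tested in the 3 classes and the 3 lists of other cycle genes (x axis), filled where the arrays of the 2 groups do not overlap, with list medians as bars and the median of all genes tested dashed. The bars stand at 0.12 for the mitosis class (0.07 over all 14 with a row), 0.13 for the G1 control list, 0.03 for the replication class and 0.04 for the other replication genes, and differences between the bars were not tested.

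Markers of cell types in muscle were set beside these values. Of 7 satellite cell and myoblast markers with a row, 5 were tested and all 5 lay higher in Lin28a Tg without overlap (21.6% of all genes tested did). Their summed intensity over the 7 was 780 to 812 in Lin28a Tg and 674 to 702 in WT, and Pax7 and Myf5, which define satellite cells, were below background on every array. The 5 were Myod1, Myog, Chrna1, Vcam1 and Megf10, and whether their signal came from dividing cells was not tested. The mean log2 deviation of the 5 from their means over the arrays was 0.18 and 0.09 on the Lin28a Tg arrays and -0.10 and -0.17 on the WT arrays. Of 8 fibroblast markers, all above background on every array, 3 lay higher without overlap and 0 lower (21.6% and 16.8% of all genes tested). The 3 were Col1a1 (1949 and 2009.7 against 1044 and 1243), Col3a1 and Thy1. Log2 fold changes were positive for 6 of the 8 and negative for 2, Dcn and Mfap5. The mean log2 deviation of the 8 was 0.14 and 0.04 on the Lin28a Tg arrays and 0.01 and -0.19 on the WT arrays. Their summed intensities overlapped, at 9085 to 9722 against 8079 to 9381. Of 8 leukocyte markers tested, 2 lay higher without overlap and 0 lower (21.6% and 16.8% of all genes tested). The 2 were Cd68 (126 and 119 against 102 and 108) and C1qb (528 and 509.6 against 406 and 405). Log2 fold changes were positive for 5 of the 8 and negative for 3, Cd14, Csf1r and Adgre1. The mean log2 deviation of the 8 was 0.02 and 0.08 against -0.11 and 0.01. Summed intensities were 2598 to 2901 against 2302 to 2638 over 10 with a row, of which Ptprc and Cd3e were at background throughout. Mean deviations of satellite cell and myoblast, fibroblast and leukocyte markers were thus higher on both Lin28a Tg arrays, as those of the mitosis genes were. For fibroblast markers the closest arrays were Lin28a Tg replicate 2 at 0.04 and WT replicate 1 at 0.01. For leukocyte markers they were Lin28a Tg replicate 1 at 0.02 and WT replicate 2 at 0.01. Summed intensities of endothelial markers overlapped, at 1072 to 1082 against 988 to 1165, with 6 of 7 above background on all arrays. Of these 7, Pecam1 lay higher and Flt1 lower without overlap (21.6% and 16.8% of all genes tested). Summed intensities of adipocyte markers also overlapped, at 6068 to 7205 against 5879 to 7723, with 3 of 7 above background on all arrays and Retn on none. Of these 7, 0 lay higher and 2 lower without overlap (18.8% and 16.6% of all genes with a row). The 2 were Cidec (90.3 and 85.7 against 119 and 102) and Fabp4. The part of these cell types in the mitosis values was not tested. Without WT replicate 1, the array with the liver transcripts, the median log2 fold change of the mitosis genes was 0.14 and that of the replication genes 0.05. Of the 14 mitosis genes 11 then lay higher without overlap and 1 lower, where 34.5% and 33.6% of all genes did with 3 arrays.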

How the data were processed

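Per the labels' protocols, RNA of 4 quadriceps samples was taken up in Trizol, treated with DNase on columns and labelled as biotin cRNA for Illumina Ref-8 arrays. The deposited values are linear intensity values with 1 row per gene symbol (18091 rows). Equal ranks differed by a median of 0.0916% between arrays, so the authors had normalized the arrays to each other, and the lowest value was 72.8, so background was not subtracted. How probes were summarised, and by which software, is not given in the sources used here. The signals of another table were left out, because its 8 value columns match no label, so detection p-values were not used here.

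Older symbols were updated through RefSeq names (14090 current, 3066 matched through an older name, 50 with several matches and 885 with none keeping their names), and the brightest row was kept per symbol. Background was the mode of all log2 values (SD 0.053 on the log2 scale, from values below the mode). The number of arrays limits the precision. Lin28a Tg was compared with WT on log2 intensity with limma 3.58.1 (lmFit, eBayes; R 4.3.3), with no covariate, with Benjamini-Hochberg adjustment over 7891 genes. A gene at or below background on both arrays of 1 group has a bound there, and its fold is written "at least", relative to its own value or that array's lowest value above background, whichever is higher. Folds of dim genes are understated.

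The genes, lists and motifs were chosen with earlier results of these data known. All 31 genes are named, and of each other list up to 6 at an unadjusted p under 0.05. Anln, Spc24, Cdca8 and Incenp were named outside this rule, for being above background on the Lin28a Tg arrays alone. Alternatives were log2 of intensity plus 16 or 50, normexp with offsets of 16 and 50, no filter, a level of 94.6 required on each of the 4 arrays, all rows of a symbol, a robust eBayes with trend, a replicate block, centring on array medians, an adjusted p under 0.10 and leaving out each array. Python 3.11.15 with pandas 2.3.3 was used for tables and motifs.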

Additional observations from a re-analysis of the deposited data

How the results depend on the processing

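No cell cycle gene passed an adjusted p of 0.05 under any alternative run, the smallest being 0.35 with limma, and of 202 values of the 15 tested genes 199 kept their direction. The 3 that turned were Mcm2 (-0.0342 without Lin28a Tg replicate 1 and -0.0457 without WT replicate 2, in a range up to 0.115 with 1 array left out) and Rrm1 (-0.0309 without Lin28a Tg replicate 1, in a range up to 0.0925). The replicate numbers share no stated source, and deviations of same-numbered arrays correlated at r = 0.037. With the replicate block the count of genes called over all genes was 0 and the smallest adjusted p 0.572. The count over all genes was 0 under the other alternatives, except 15 without WT replicate 2, none of them among the 31 genes. With any 1 array left out it ranged from 0 to 15.

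Medians of log2 fold changes moved by more than the spread between replicates as follows. With normexp at an offset of 16 they were 0.332 for the G1 to S regulators (Cdk2 alone), 0.0812 for replication genes, 0.352 for mitosis genes, 0.221 for the G1 control list and 0.106 for the other mitosis genes, and with an offset of 50 the mitosis genes were at 0.164. With log2 of intensity plus 50 the mitosis genes were at 0.0743 and the G1 control list at 0.0939. Without a filter the mitosis genes were at 0.0734 (14 genes), the G1 control list at 0.0445 and the other mitosis genes at 0.0196. Under the stricter filter the mitosis genes were at 0.364, from Aurka alone, and the other mitosis genes at 0.0768. With 1 array left out the ranges were 0.0317 to 0.291 for the G1 to S regulators, 0.00378 to 0.088 for replication genes, 0.0886 to 0.142 for mitosis genes, 0.0771 to 0.109 for the G1 control list, -0.0203 to 0.0379 for other replication genes and 0.0357 to 0.068 for other mitosis genes. Tested genes of the 3 classes without overlap were 8 higher and 2 lower (21.6% and 16.8% of all genes tested). Of the 8, Top2a, Bub1b and Tyms entered the test only through their Lin28a Tg arrays and so had to lie higher. The counts were 13 and 4 without a filter (28 genes, 18.8% and 16.6% of all genes with a row) and 3 and 1 under the stricter filter (7 genes). With 1 array left out, the tested genes gave 8 to 13 and 2 to 3, 13 being without Lin28a Tg replicate 2. Of all genes with a row, 34.5% to 36.2% then lay higher and 31.4% to 33.6% lower. Intensities near background limit what these arrays can show of most mitosis genes.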
